A study of Mus musculus with 20 samples.

Results

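Sash3, AI662270, Gm4728 and Snx20 are 4 mouse genes, each read by 1 probe, among 27069 genes measured in pluripotent stem cell lines. They were chosen by their measured values, for being higher in all poor-quality induced pluripotent stem cell (iPSC) lines than in all embryonic stem cell (ESC) lines. Expression had been measured with 20 Agilent arrays in 1 colour (Cy3), 2 arrays for each of 10 lines, on 3 slides. iPSCs are body cells turned back to a pluripotent state by added transcription factors, here either OSKM (the genes Oct4, Sox2, Klf4 and Myc) or the alternative set SNEL (which joins Sall4 and Nanog to Esrrb and Lin28). KH2_OSKM, Oct4-GFP OSKM#2 and Nanog-GFP OSKM#2 were graded poor. The grade good went to Nanog-GFP SNEL#3 and BC_2 OSKM, and the grade high to Oct4-GFP SNEL#1 and Nanog-GFP SNEL#2. The ESC lines were Oct4-GFP ESCs, Nanog-GFP ESCs and KH2 ESCs. All cells were untreated and had been cultured without feeder cells in 2i, a medium with inhibitors that hold mouse stem cells in the naive state. The labels do not say how quality was graded, and all 3 poor lines were made with OSKM and both high lines with SNEL. Nor do the labels tell whether a line's arrays used RNA of different cultures. The line is therefore the replicate, n counts lines, and p-values measure only the spread between these lines.

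Sash3 encodes SLY1, an adaptor protein with SH3 and SAM domains known from lymphocytes, where it takes part in signalling from the antigen receptor. Snx20 encodes a sorting nexin, a protein that binds membrane phosphoinositides through its PX domain; it is known from blood cells, where it binds the tail of the selectin ligand encoded by Selplg and carries it to endosomes. AI662270 is a long non-coding RNA gene, and Gm4728 is a pseudogene, per RefSeq's biotypes. The array's annotation describes the Gm4728 transcript as similar to preferentially expressed antigen in melanoma like 7, a member of the Prame family. Mouse genes of that family are known for expression in germ cells and early embryos.

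All values below come from single probes of 60 bases, and those of Sash3, AI662270 and Gm4728 are shown because each gene rests on 1 of them. Positions are those of mm9, the build named in the scanner files. The Sash3 probe lies on chrX:45514492-45514551 (+), the AI662270 probe on chr11:83038072-83038131 (+) and the Gm4728 probe on chrX:12979039-12979098 (+). Whether the Sash3 probe lies in a coding exon or a UTR was not determined here, so its first 30 bases are printed. The probes read, 5′ to 3′:
AI662270: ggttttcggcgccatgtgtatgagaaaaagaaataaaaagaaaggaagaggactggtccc
Gm4728: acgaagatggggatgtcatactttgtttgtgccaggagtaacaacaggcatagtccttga
Sash3 (first 30 bases): aactccacaggatcaggagattatcacaac
GC content was 45% in the Sash3 and Gm4728 probes and 43.3% in the AI662270 probe. Among the matches found to other probes, the longest exact one was 13 bases for Sash3, 16 bases for AI662270 (with a Gria3 probe) and 13 bases for Gm4728. AI662270 also matched 22 of 24 bases of a Gm2658 probe.

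A level is the log2 signal minus that of the array's 75th percentile, and a probe counts as well above background where the scanner software marked it so. Values of other spots are printed as recorded and have no firm order among themselves. The share of spots well above background ran from 59.1% to 77.5% on the poor arrays, from 49.7% to 64.1% on the good arrays, from 50.6% to 68.7% on the high arrays and from 60.6% to 68.7% on the ESC arrays. The lowest level so marked differed too, from −6.40 on array 2 of Oct4-GFP SNEL#1 to −4.19 on array 1 of Nanog-GFP SNEL#3. On array 2 of Nanog-GFP SNEL#3 it was −4.66, and on array 1 of Oct4-GFP SNEL#1 −4.44. In Nanog-GFP SNEL#2 it was −5.05 and −5.42. Counts of arrays above background therefore do not compare like with like for dim genes. Precision is limited by the number of arrays. Array 1 of KH2_OSKM stood apart. It had the highest share (77.5%, against 59.1% on array 2 of that line), and 649 of the genes tested (2.40%) differed at least 8-fold between its arrays, 607 of them higher on array 1. In the other 9 lines 65 to 171 genes did. Results for Sash3, AI662270 and Gm4728 are therefore given with and without this array, and those of all members also without the whole line. All 15 pluripotency markers, among them Pou5f1, Nanog and Sox2, were well above background on all 20 arrays, and 12 of them were lower in poor than in ESC lines (median −0.13), none past the test. The smallest p were those of Dppa3, with −1.86 ± 0.82 (SE; limma, adjusted p = 0.518), and Klf4, with −0.27 ± 0.30 (limma, adjusted p = 0.894).

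Sash3 was well above background in the poor lines and in little else. Its poor mean of −4.67 was below the lowest level so marked on both arrays of Nanog-GFP SNEL#3 and array 1 of Oct4-GFP SNEL#1. On arrays 1 and 2 the level of Sash3 was −4.70 and −4.46 in Nanog-GFP OSKM#2, −4.67 and −4.80 in Oct4-GFP OSKM#2, and −4.27 and −5.11 in KH2_OSKM. The high line Oct4-GFP SNEL#1 had −5.52 and −5.34. The good lines Nanog-GFP SNEL#3 (−6.19 and −6.32) and BC_2 OSKM (−6.49 and −6.11) overlapped each other. The high line Nanog-GFP SNEL#2 had −7.01 and −6.99. Values of the ESC lines were −7.61 and −7.08 in Nanog-GFP ESCs, −7.44 and −7.46 in KH2 ESCs, and −8.00 and −7.82 in Oct4-GFP ESCs. These good, high and ESC values are given as recorded, and no order is read among these lines. All 6 poor arrays lay above all 14 other arrays, and the probe was well above background on 6 of 6 poor, 0 of 4 good, 1 of 4 high (array 2 of Oct4-GFP SNEL#1) and 0 of 6 ESC arrays. The 3 poor lines could not be put in order, since their arrays overlapped. The means were −4.67 ± 0.08 (SD, n = 3) in poor, −6.28 ± 0.03 (n = 2) in good, −6.21 ± 1.11 (n = 2) in high and −7.57 ± 0.30 (n = 3) in ESC lines. The difference of poor and ESC lines chose the gene and is given with no test. It was 2.90 on the log2 scale, and since no ESC array measured Sash3 above background, the ratio is stated as a bound of at least 2.62-fold. Without array 1 of KH2_OSKM this bound was 2.38-fold. For such bounds, each ESC array stands at the lowest signal it measured well above background. The poor values are taken as recorded, also where an array was not well above background.

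AI662270 was measured on 5 of 6 poor arrays and 1 of 4 good arrays, and on 0 of 4 high and 0 of 6 ESC arrays. Its poor mean of −4.92 was below the lowest level marked well above background on both arrays of Nanog-GFP SNEL#3 and array 1 of Oct4-GFP SNEL#1. KH2_OSKM gave both the highest and the lowest poor value, −2.69 on array 1 and −6.56 on array 2, the latter not well above background. Nanog-GFP OSKM#2 had −5.01 and −5.02, and Oct4-GFP OSKM#2 had −4.74 and −5.52. The good line BC_2 OSKM was close behind with −5.47 and −5.39, of which only the first was marked well above background, and it overlapped Oct4-GFP OSKM#2. The good line Nanog-GFP SNEL#3 had −6.27 and −6.69, the high lines Oct4-GFP SNEL#1 and Nanog-GFP SNEL#2 had −6.55 and −7.61 and −7.13 and −7.48, and the 6 ESC arrays ran from −8.39 to −7.46 with a median of −8.13. In the recorded values the only gap between neighbouring lines that their arrays did not bridge lay below BC_2 OSKM, which was 1.05 above Nanog-GFP SNEL#3. Neither array of Nanog-GFP SNEL#3 was well above background. Their lowest levels so marked (−4.19 and −4.66) lay above both levels of BC_2 OSKM, so this gap is not a measured separation. Means were −4.92 ± 0.26 (SD, n = 3) in poor, −5.96 ± 0.74 (n = 2) in good, −7.19 ± 0.16 (n = 2) in high and −8.07 ± 0.22 (n = 3) in ESC lines. Poor lines were 3.15 above ESC lines on the log2 scale, at least 2.19-fold. Good lines were 2.11 above ESC lines as recorded. Only 1 of 4 good arrays, array 1 of BC_2 OSKM, was well above background, so no fold is stated. Without array 1 of KH2_OSKM the poor lines were 2.50 above the ESC lines, and the bound was 1.40-fold.

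Gm4728 was well above background on 5 of 6 poor arrays and on no other array. Among the good and high arrays, several could not have marked a level as low as its poor mean of −5.52. These were both arrays of Nanog-GFP SNEL#3 and of Nanog-GFP SNEL#2, and array 1 of Oct4-GFP SNEL#1. The level of Gm4728 was −5.09 and −5.31 in Oct4-GFP OSKM#2 and −5.56 and −5.53 in Nanog-GFP OSKM#2. In KH2_OSKM it was −3.84 on array 1 and −7.77 on array 2. The value of array 2 was a stand-in, the value the scanner software gives a spot not significantly above background, and it was 0.05 above the highest ESC array (−7.82). Good and high arrays ran from −7.75 to −6.36, and ESC arrays from −8.69 to −7.82 with a median of −8.41. So 5 poor arrays stood apart, and the sixth lay among the 14 arrays of the other groups. Oct4-GFP OSKM#2 lay above Nanog-GFP OSKM#2 without overlap, both arrays of each fell between those of KH2_OSKM, and the 7 other lines were not measured above background and are given no order. Means were −5.52 ± 0.30 (SD, n = 3) in poor, −6.77 ± 0.03 (n = 2) in good, −7.18 ± 0.55 (n = 2) in high and −8.36 ± 0.19 (n = 3) in ESC lines. The difference of 2.84 between poor and ESC lines was at least 1.45-fold. This bound rests on array 1 of KH2_OSKM: without it the difference was 2.19, and the mean of the poor lines lay below the ESC arrays' lowest measurable level, so that no fold can be stated. Without the whole line the bound was 1.60-fold.

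Snx20 was the one member well above background on all 20 arrays, so its differences are measured on both sides. Nanog-GFP OSKM#2 was highest with 1.31 and 1.18, followed by Oct4-GFP OSKM#2 with 0.81 and 0.75. The high line Oct4-GFP SNEL#1 (0.53 and 0.29) overlapped the poor line KH2_OSKM (0.33 and 0.36). BC_2 OSKM had 0.03 and 0.13, and Nanog-GFP SNEL#3 had 0.02 and −0.10. The high line Nanog-GFP SNEL#2 (−0.42 and −0.52) overlapped Nanog-GFP ESCs (−0.43 and −0.59). Oct4-GFP ESCs (−0.61 and −0.86) and KH2 ESCs (−1.19 and −1.25) were lowest. The high lines thus lay far apart, 1 beside a poor line and 1 beside an ESC line, and the good lines lay between them. Means were 0.79 ± 0.45 (SD, n = 3) in poor, 0.02 ± 0.09 (n = 2) in good, −0.03 ± 0.62 (n = 2) in high and −0.82 ± 0.36 (n = 3) in ESC lines. Poor lines were 3.06-fold above ESC lines (1.61 on the log2 scale), good lines 1.79-fold and high lines 1.73-fold. These comparisons share the ESC lines, and the first chose the gene.

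**Figure D1:**
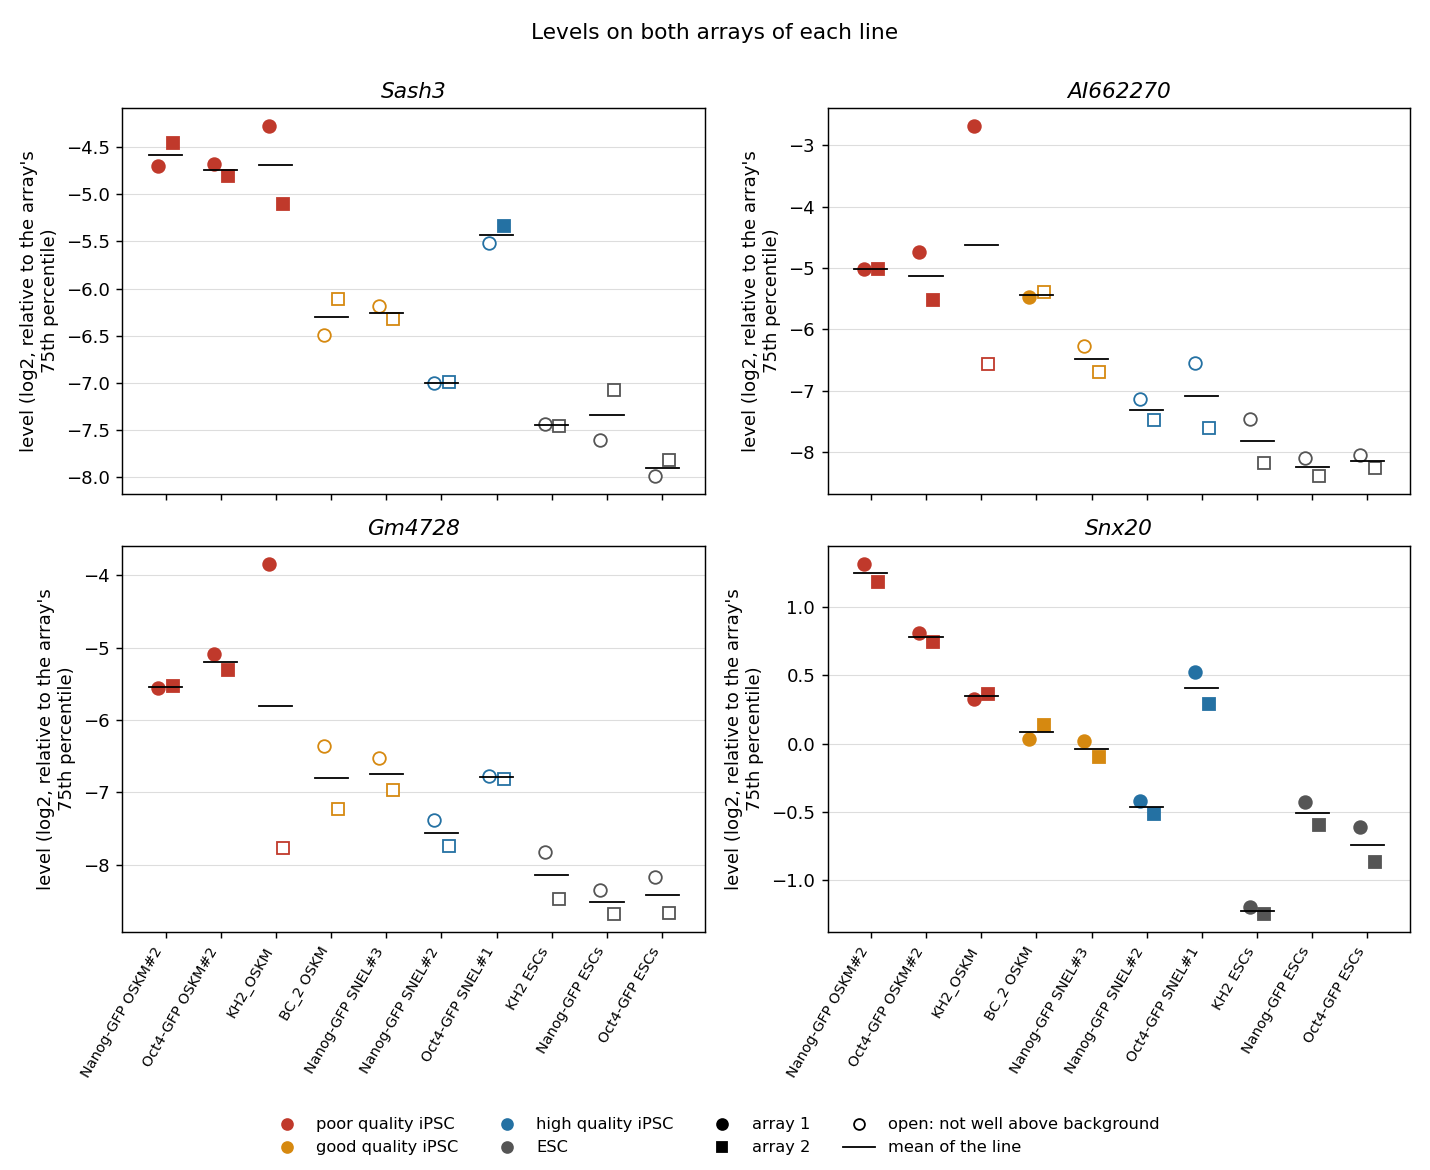
Level of each gene (log2 signal relative to the array's 75th percentile) on array 1 (circles) and array 2 (squares) of each line, coloured by group, with the mean of the line as a bar and open symbols where the probe was not well above background. The ESC arrays are open throughout for Sash3, AI662270 and Gm4728 and filled for Snx20, and the arrays of KH2_OSKM lie far apart for AI662270 and Gm4728.

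The separation that chose the members is common among the genes on the array. All 3 poor lines lay above all 3 ESC lines for 1809 of 27069 genes (6.68%), which includes all 4 members by choice. The gap between the lowest poor line and the highest ESC line was 2.61 for Sash3, 2.69 for AI662270, 2.34 for Gm4728 and 0.85 for Snx20 on the log2 scale. By size of the poor minus ESC difference they ranked 76th, 58th, 80th and 412th. Nothing is read from these counts, since the rule used the same lines. The filter asks for at least 4 of 20 arrays well above background, and Sash3 (6 poor arrays and 1 other), AI662270 (5 and 1) and Gm4728 (5 and 0) met it only through poor arrays, so they had to differ to be tested. The rule averaged the arrays of a line. With arrays set apart, all 6 poor arrays lay above all 6 ESC arrays for 1.45% of genes and for all 4 members, for Gm4728 by 0.05. The poor lines lay above every good, high and ESC line for 1.08% of genes and for Sash3, AI662270 and Gm4728, but not for Snx20. All 6 poor arrays lay above every other array for 0.137% of genes, and among the members for Sash3, at −5.11 on the lowest poor array against −5.34 on array 2 of Oct4-GFP SNEL#1. In the authors' deposited table this held for 5 of the 6 poor arrays of Sash3, with 5.46 on the lowest against 5.69 on the highest other array. In limma's fit no gene passed between poor and ESC lines (0% of 27069), good and ESC lines (0%) or high and ESC lines (0%) after Benjamini-Hochberg adjustment at 0.05. At an unadjusted p under 0.05 there were 2633, 1665 and 1581.

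Lines that share a name with an ESC line gave the same comparison within an origin, as far as the names tell. Sash3 was above Nanog-GFP ESCs by 2.77 in the poor, 1.09 in the good and 0.34 in the high Nanog-GFP line. Above Oct4-GFP ESCs it was 3.17 in the poor and 2.48 in the high line, and above KH2 ESCs 2.76 in KH2_OSKM. AI662270 ran 3.23, 1.77 and 0.94 above Nanog-GFP ESCs in the poor, good and high lines, 3.02 and 1.07 above Oct4-GFP ESCs in the poor and high lines, and 3.19 in KH2_OSKM. For Gm4728 the values were 2.97, 1.77 and 0.95 in the Nanog-GFP lines, 3.21 and 1.62 in the Oct4-GFP lines, and 2.34 in KH2_OSKM. For Snx20 they were 1.76, 0.47 and 0.04 in the Nanog-GFP lines, 1.52 and 1.15 in the Oct4-GFP lines, and 1.57 in KH2_OSKM. These are single lines with no test, and the poor values are among those that chose the members. For genes other than Snx20 the ESC value is not a measured level. Nor are the values of the good and high lines given here, apart from array 2 of Oct4-GFP SNEL#1 for Sash3. For those 3 genes no order of good, high and ESC lines is read from the values.

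High against good lines is the comparison of grades that the choice of members did not use. Sash3 was 0.07 ± 0.45 (SE) higher in high lines (95% confidence interval −0.96 to 1.09; limma, adjusted p = 1). AI662270 was lower by 1.24 ± 0.35 in high lines, −7.19 against −5.96 (interval −2.04 to −0.43; limma, adjusted p = 1). Gm4728 was 0.41 ± 0.30 lower (interval −1.10 to 0.29; limma, adjusted p = 1), and Snx20 0.05 ± 0.39 lower (interval −0.95 to 0.85; limma, adjusted p = 1). None of the 4 differences passed after adjustment over all genes, and neither did any other gene (0%; 720 genes had an unadjusted p under 0.05, AI662270 among them). Only 1 of the 8 arrays compared was well above background for Sash3, 1 for AI662270 and none for Gm4728, so only the Snx20 interval compares measured levels. As recorded, both good lines lay above both high lines for AI662270. In the authors' deposited table the good line Nanog-GFP SNEL#3 (4.96) lay below the high lines Oct4-GFP SNEL#1 (5.25) and Nanog-GFP SNEL#2 (5.12). The difference of AI662270 ran from −1.76 to −0.71 when single lines were left out. It was −0.11 with normexp background correction and −0.16 in the authors' deposited table. The high lines were apart for Sash3, with a mean of −5.43 in Oct4-GFP SNEL#1 and −7.00 in Nanog-GFP SNEL#2, and for Snx20, with 0.41 and −0.47.

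The arrays of KH2_OSKM gave very different values for AI662270 and Gm4728. Between them AI662270 differed by 3.88 on the log2 scale, 14.7-fold, and Gm4728 by 3.92, 15.2-fold. Sash3 differed by 0.83 and Snx20 by −0.04. Genes as dim as AI662270 on array 2 (within 0.5 on the log2 scale, 1160 genes) were 1.82 higher on array 1 at the median, and 4.05% of them differed at least as much as AI662270. For the 654 genes as dim as Gm4728 the median was 2.86, and 17.7% differed at least as much. For the 2439 genes near Sash3 the median was 0.85, and 50.8% were at or above it. For the 1995 genes near Snx20 it was 0.01, and 63.1% were at or above it. Thus Sash3 and Snx20 differed between these arrays about as genes of their level did, and AI662270 by more than most. In the authors' deposited table the same arrays gave AI662270 7.12 and 5.40, Gm4728 6.06 and 5.08, and Sash3 5.46 and 5.90, the last in the opposite order. Without the line KH2_OSKM the poor lines lay above the ESC lines by 2.91 for Sash3, 3.00 for AI662270, 2.98 for Gm4728 and 1.84 for Snx20.

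**Figure D2:**
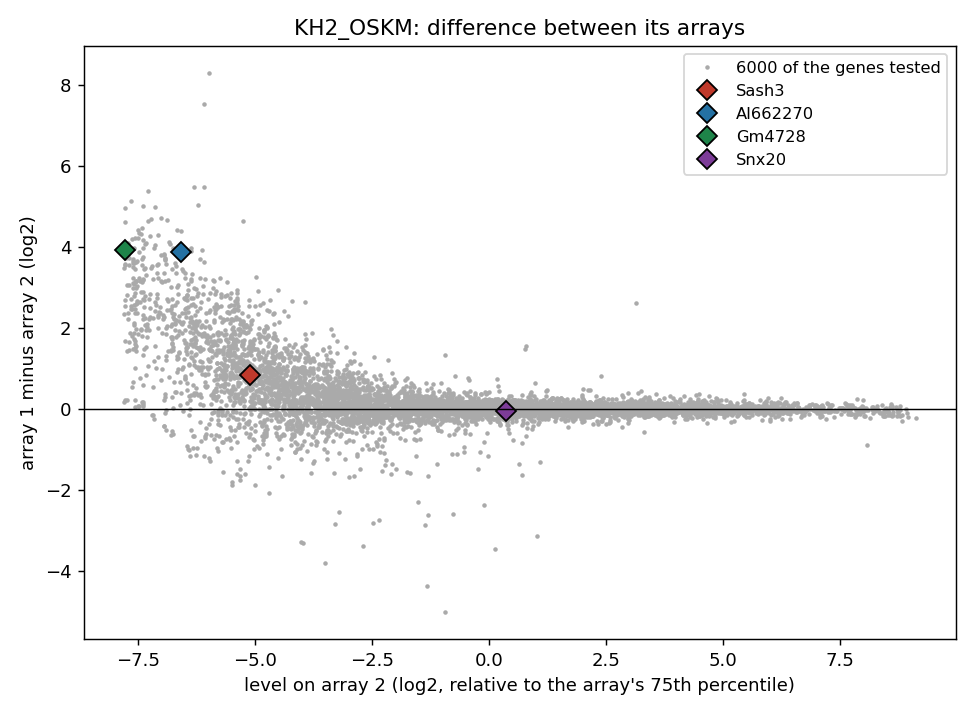
Difference between the arrays of KH2_OSKM (array 1 minus array 2, log2) against the level on array 2, for 6000 of the genes tested (grey points) and the 4 members (diamonds). Dim genes lie mostly above 0, AI662270 at 3.88 and Gm4728 at 3.92 lie in the upper part of the cloud at their level, and Snx20 at −0.04 lies on the line.

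The size of the poor minus ESC difference depended on how dim signals were treated for Sash3, AI662270 and Gm4728, and much less for Snx20. With normexp background correction and an offset of 50 the differences were 0.52 for Sash3, 0.55 for AI662270, 0.46 for Gm4728 and 1.50 for Snx20. In the authors' deposited table of log2 values they were 0.78, 0.89, 0.75 and 1.52. With each level below an array's lowest measurable one set to that level, they were 1.39, 1.32, 0.92 and 1.61. By the authors' values, 5 of 6 poor arrays of Gm4728 lay above every ESC array, the lowest at 5.08 against a highest ESC value of 5.20. For Sash3, AI662270 and Snx20 all 6 did. Within slides 1 and 2 no direction turned, but few ESC arrays lay there. The only ESC array on slide 1 was array 1 of KH2 ESCs. Those on slide 2 were array 1 of Nanog-GFP ESCs and array 1 of Oct4-GFP ESCs. Slide 3 held no poor array, so slide and group cannot be fully told apart. Within slide 1 the differences were 2.89, 3.32, 2.99 and 2.01 in the same order of genes, and within slide 2 they were 3.01, 2.36, 2.05 and 1.28.

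**Figure D3:**
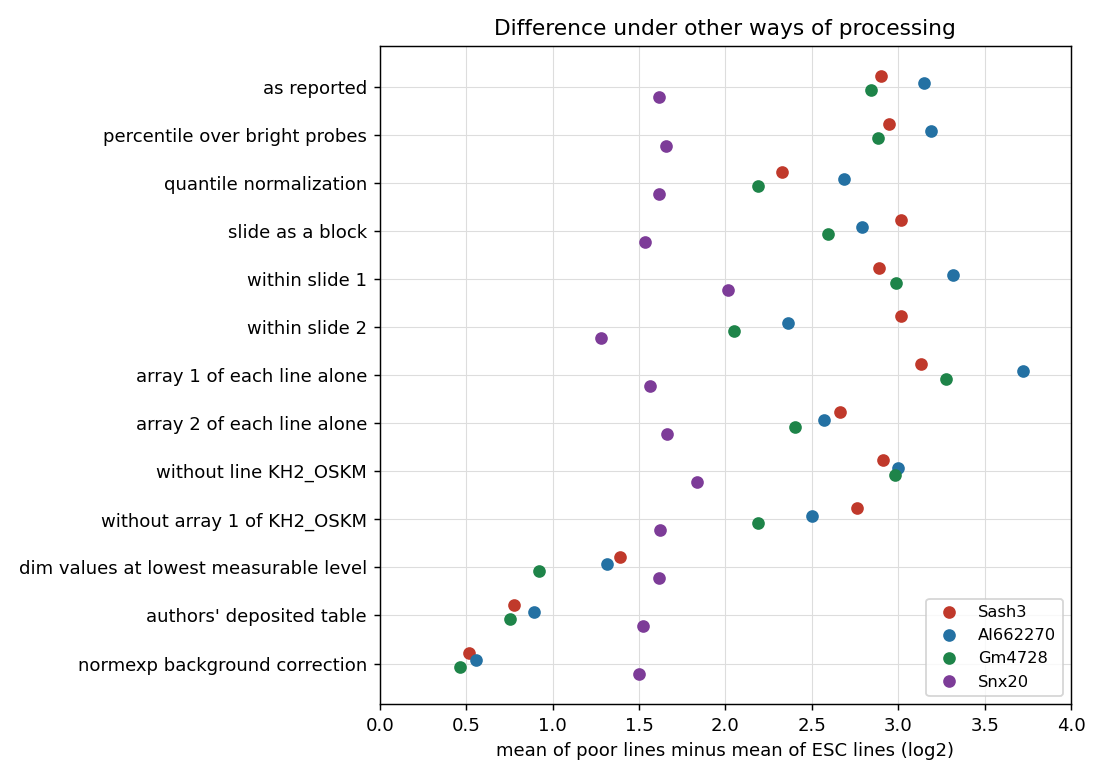
Mean of poor lines minus mean of ESC lines (log2) for each member under 13 settings, from the one reported (top) to normexp background correction (bottom). Snx20 stays between 1.28 and 2.01, whereas Sash3, AI662270 and Gm4728 go from between 2.84 and 3.15 at the top to between 0.46 and 0.55 at the bottom.

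The genes beside each member were compared to see how local the differences were. For Sash3 the nearest 3 genes on either side that passed the filter (Ocrl, Apln, Xpnpep2, Zdhhc9, Utp14a and Bcorl1) had poor minus ESC differences from −0.20 to 0.89. Xpnpep2, the nearest before Sash3, had 0.89 ± 0.98 (SE; limma, adjusted p = 0.895). For Gm4728, beside Ddx3x, Gm5380, Gm7129, Nyx, Gm14506 and Cask, they ran from −0.19 to 0.44. For Snx20, beside Brd7, Gm2738, Nkd1, Nod2, Cyld and Gm16406, they ran from −0.24 to 0.37. None of these 18 passed (limma). Over 5 Mb on either side of the members the median line minus ESC difference lay between −0.25 and 0.21 in every line. The 0.21 was that of the Snx20 window in Nanog-GFP OSKM#2, where chromosome 8 as a whole had a median of 0.21 and Snx20 itself was at 2.13 on the same scale.

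The surroundings of AI662270 held a neighbour with a difference of like size. AI662270 lies among Schlafen genes, a family known for roles in immune cells and interferon responses, with Slfn8, Slfn10-ps and Slfn2 before it and Gm11427 after it. Gm11427, a pseudogene described on the array as similar to schlafen 4, has its probe 35.8 kb after that of AI662270 on chr11:83073892-83073951 (+). Its level was −3.96 and −3.97 in Nanog-GFP OSKM#2, −4.89 and −5.51 in Oct4-GFP OSKM#2, −3.74 and −5.09 in KH2_OSKM, and −4.03 and −4.28 in the good line BC_2 OSKM. These 8 arrays were well above background and the 12 others were not, from −8.46 to −6.22. The same 4 lines, which are all the OSKM lines, had the highest mean levels of AI662270 as recorded. Gm11427 was 3.60 higher in poor than in ESC lines, at least 2.88-fold. It met the filter only through its 6 poor arrays and those of BC_2 OSKM, so this is a description with no test. It was 0.71 with normexp background correction and 1.11 in the authors' deposited table. Slfn8 was 1.20 ± 0.79 higher (limma, adjusted p = 0.741), Slfn10-ps 0.98 ± 1.01 and Slfn2 0.68 ± 0.44, none past the test.

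**Figure D4:**
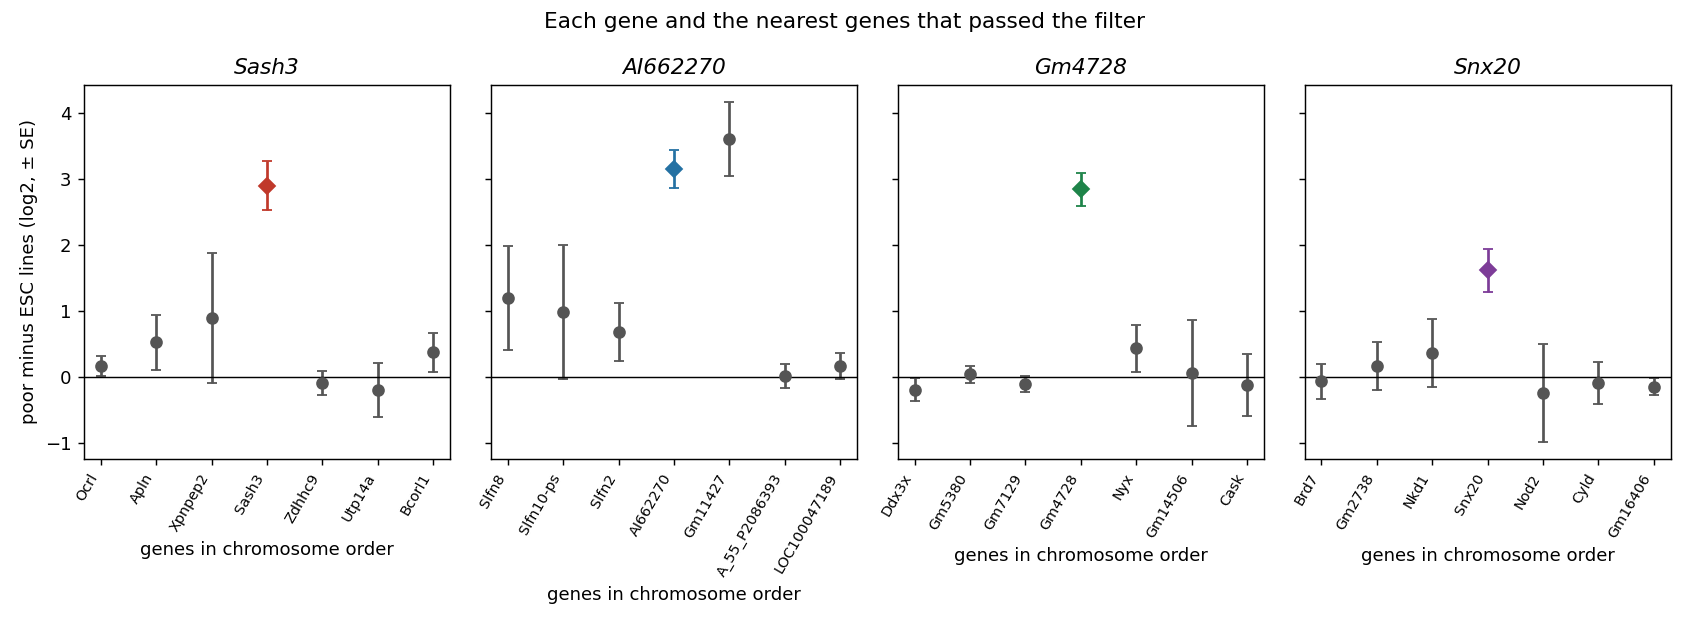
Poor minus ESC difference (log2, with the standard error of limma's fit) of each member (coloured diamond) and of the nearest 3 genes on either side that passed the filter (grey), in chromosome order. Gm11427 beside AI662270 stands at 3.60, and the next highest neighbour, Slfn8, at 1.20.

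The genes most like each member over the 10 line means are given as a description, since arrays, signal scale and dimness are shared. For Sash3 they were Gm4728 (Pearson r = 0.963), Cyp4f14 (0.940), Slc29a4 (0.939), Socs1, an inhibitor of cytokine signalling (0.937), and Btk, a kinase of B cell receptor signalling (0.931). For AI662270 they were Gm11427 (0.970, and 0.925 over the 20 arrays), Gm4728 (0.937), Cpne5 (0.936), Rhod (0.934) and Cmpk1 (0.931). For Gm4728 they were Sash3, Cxcl10, a chemokine gene (0.943), AI662270, Tspan8 (0.937) and Atp1a4 (0.921). For Snx20 they were Bpifb4 (0.967), 1700018B24Rik (0.951), Xlr3b (0.939), Ttc25 (0.931) and Rdh16f2 (0.927), so Snx20 shared none of its 5 with the other members. Among the members themselves r ran from 0.812 for AI662270 with Snx20 to 0.963 for Sash3 with Gm4728, and their choice favours such values. In these bulk samples a transcript in fewer cells and less transcript per cell cannot be told apart.

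None of the other genes listed for the families and pathways of Sash3 and Snx20 passed the test in any of the 4 comparisons. Of the SLY adaptor family, Sash1 was 0.66 ± 0.26 (SE) lower in poor than in ESC lines (limma, adjusted p = 0.458), and Samsn1 was well above background on 0 arrays. Of 28 sorting nexin genes tested besides Snx20, 10 were higher in poor lines, with a median difference of −0.08 against −0.04 over all genes. The 2 with the smallest p, Snx10 and Snx30, had −0.38 ± 0.20 and −0.41 ± 0.26 (limma, adjusted p = 0.618 and 0.724). Snx21, the closest relative of Snx20, had −0.33 ± 0.37, and Selplg, whose product Snx20 binds, had 0.24 ± 0.84. Of 19 genes of antigen receptor signalling tested, 14 were higher in poor lines, with a median of 0.32, where 45.1% of all genes were higher. Btk had the smallest p, with a difference of 2.33 that is given with no test: it was well above background on 5 of 6 poor, 0 of 4 good, 1 of 4 high and 0 of 6 ESC arrays and so met the filter only through poor arrays. Cd3d, a subunit of the T cell receptor complex, had 3.17 ± 0.90 (limma, adjusted p = 0.292), and Cd3g 3.86 ± 1.15 (limma, adjusted p = 0.307). The kinases Lck and Syk had −0.16 and −0.17. In limma's fit for poor against ESC lines, 3 of the 19 genes of antigen receptor signalling and 0 of these 28 sorting nexins had an unadjusted p under 0.05, as had 9.73% of all genes. The 3 genes were Btk, Cd3d and Cd3g. Btk had to differ to be tested and is counted among the 3, the 14 and the median of this list, so nothing is read from these counts.

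Markers of the blood cells in which Sash3 and Snx20 are known were read on the same arrays, and none passed the test for poor against ESC lines (2 of 14 lymphocyte and 1 of 10 myeloid markers had an unadjusted p under 0.05, near the 9.73% of all genes). Of 14 lymphocyte markers tested 9 were higher in poor lines (median 0.09), and of 10 myeloid markers 6 were (median 0.11). The lymphocyte markers with the smallest p were Cd3d and Cd3g. They were higher in poor lines by 3.17 ± 0.90 and 3.86 ± 1.15 (limma, adjusted p = 0.292 and 0.307). Every poor line lay above every ESC line for both, as for 6.68% of all genes. The summed linear level of the 18 lymphocyte markers on the array was 25.9 to 29.3 in poor, 22.1 to 30.1 in good, 19.5 to 32.5 in high and 21.3 to 26.2 in ESC lines. That of the 14 myeloid markers was 8.70 to 9.98, 10.6 to 11.9, 8.54 to 11.4 and 8.91 to 10.01. Ptprc, which encodes the pan-leukocyte antigen CD45, was well above background on 4 of 6 poor, 0 of 4 good, 1 of 4 high and 4 of 6 ESC arrays. The macrophage gene Adgre1 was 0.67 ± 0.24 lower in poor lines (limma, adjusted p = 0.408). The B cell gene Ms4a1 and the recombinase gene Rag1 were well above background on 0 of 20 arrays. Fibroblast markers were lower in poor lines for 15 of 19 genes (median −1.68), and 10 of the 19 had an unadjusted p under 0.05, with the smallest p for Col6a1 (−3.17 ± 0.47) and Col3a1 (−4.62 ± 0.76, both limma, adjusted p = 0.191). Against ESC lines, 17 of the 19 were also lower in good lines (median −1.35) and 14 in high lines (median −0.71). Markers of the 2-cell-like state were higher in poor lines for 8 of 11 (median 1.90), where 45.1% of all genes were higher. Against ESC lines, 9 of 11 were higher in good lines (median 0.20) and 9 of 11 in high lines (median 1.25). Among those higher in poor lines were Usp17lb with 3.74 ± 1.34 (limma, adjusted p = 0.406) and Tcstv3 with 2.97 ± 1.43 (limma, adjusted p = 0.573). The part of these cell states in the members' differences was not tested. As Sash3 and Gm4728 lie on the X chromosome, genes of X and Y dosage were read too. Xist was well above background on 0 arrays, which alone does not give the dosage. The Y-linked Ddx3y was −8.29 in Nanog-GFP ESCs and between −3.06 and 1.00 in the other 9 lines. These lines were not alike: the Y-linked Eif2s3y was −3.12 in BC_2 OSKM and −1.20 in KH2_OSKM. It was −8.11 in Nanog-GFP ESCs and between 0.64 and 3.49 in the remaining lines. The median line minus ESC difference of X-linked genes lay between −0.04 and 0.07 in every line.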

How the data were processed

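The deposited scanner files hold an intensity per spot (gProcessedSignal), which the authors made with Feature Extraction 10.1.1.1 on array design 028005, per the file headers, after background subtraction. The authors also deposited a table of log2 values on an absolute scale, whose normalization is not given in the sources used here; the submitters' processing notes name limma. Per the labels, 300 ng of RNA was hybridized per array.

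Control spots were left out, outlier-flagged values set to missing, and repeated spots averaged (55681 probes). Log2 signals were centred on each array's 75th percentile. A probe was tested if at least 4 of 20 arrays marked it well above background, and a gene was read from its brightest such probe (27069 genes). The arrays of a line were averaged, and limma (version 3.58.1, R 4.3.3) fitted the 4 groups, with Benjamini-Hochberg adjustment over all genes and a threshold of 0.05. The fit was tested on simulated data. Tables were handled in R's data.table, version 1.17.8. Probe sequences were compared with blastn 2.17.0. The Snx20 probe's sequence is not reported here. RefSeq accessions gave 26413 probes a current symbol. Summed marker levels are linear, relative to the 75th percentile. Distances between genes are between probes.

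The members and gene lists were chosen with earlier results of these data known. Named besides the members were the nearest 3 genes on either side, the 5 genes most alike over line means, and from each list the 2 genes with the smallest p in poor against ESC lines; Lck, Syk and the genes given by detection alone are examples chosen after their values were seen. Alternatives changed the background correction, scaling, filter, probe rule, slide, arrays and lines; 2 of them, without array 1 of KH2_OSKM and with dim values raised to the lowest measurable level, were chosen after seeing the data.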

Additional observations from a re-analysis of the deposited data

How the results depend on the processing

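No gene passed in any of the 4 comparisons as reported. With the 20 arrays kept apart, the line as a random block and slide as a block, 11 genes passed for poor against ESC lines and 4 for the good lines. With the array number as a replicate block these were 26 and 5, and with neither block 40 and 10, with 5 for high against ESC lines. On array 2 of each line alone 1 gene passed for good against ESC lines and 1 for high against good lines. Leaving out single lines gave 0 to 2 genes for poor against ESC, 0 to 6 for good against ESC, 0 to 1 for high against ESC and 0 to 3 for high against good lines; calls appeared without Oct4-GFP OSKM#2, BC_2 OSKM, Nanog-GFP SNEL#3, Nanog-GFP SNEL#2 or Oct4-GFP SNEL#1. The cause was not tested. In the reported fit array numbers were not taken to pair arrays of different lines. Over 45 pairs of lines the correlation of same-numbered deviations ran from −0.097 to 0.513, with a median of 0.168 and 29 over 0.1. Same-numbered arrays of different lines thus often deviated together. The replicate block changed no call of the members in high against good lines, the one comparison in which they were tested. The poor minus ESC differences of the members were above 0 in all alternatives run (25 each, and 26 for Snx20). The high minus good difference of Sash3 turned to −0.0289 with normexp, −0.14 in the authors' table, −0.0120 with slide as a block, −0.77 within slide 2 and −0.72 without Oct4-GFP SNEL#1 (up to 0.85 without other single lines). That of Snx20 turned to 0.01 without BC_2 OSKM, 0.39 without Nanog-GFP SNEL#2 (down to −0.49 without other single lines) and 0.0309 on array 1 of each line alone, for these lines all on slide 1. A filter of at least 10 arrays above background kept only Snx20 of the 4 members, and for the other 3 the signal over background limits what good, high and ESC arrays can show.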
